A study of Mus musculus with 9 samples.

Results

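The cytosolic ribosomal protein genes are those of the proteins of the large and small ribosomal subunits. They were taken as the genes with symbol Rpsa, Rplp0, Rplp1 or Rplp2, and those named Rpl or Rps followed by a number and at most a short suffix (a, x, l, al or l1). The pattern matched 85 of the genes listed, of which 1 (Rpl10l) was at 0 in every library, so 84 of 22173 genes formed the family: 53 of the large and 31 of the small subunit. GENCODE lists 82 of them as protein coding and 2, Rpl6l and Rpl32l, as processed pseudogenes with no coding sequence. The naming rule uses no measured value apart from that floor, but the family was chosen for description with earlier results of these data known. Of these, 81 (50 large and 31 small) had a mean FPKM (fragments counted per kilobase of exon and scaled to library size) of at least 1 over the libraries and were tested, and Rpl3l, Rpl32l and Rpl39l were not.

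Each ribosome holds a single copy of nearly all of these proteins, while the acidic stalk proteins are present in several copies. The genes are transcribed at a high rate in most cells, and their mRNAs begin with a C followed by a run of pyrimidines, the TOP (terminal oligopyrimidine) motif. The motif places their translation under the control of mTORC1 and the RNA-binding protein LARP1, and MYC is a known activator of their transcription and of ribosome assembly. In the liver, ribosome content follows feeding, growth and regeneration.

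PolyA RNA was sequenced from mouse libraries labelled cholangiocyte, the epithelial cell of the bile ducts. Mice had a sham operation, a ligation of the bile duct (BDL), which stops the flow of bile, or BDL plus senkyunolide A, a phthalide of the herb Ligusticum chuanxiong, with 3 libraries in each group and 9 in all. The group with senkyunolide A is called treated below. The sources used here do not give the dose, the times, the strain, sex and age of the mice or how cells were isolated, nor whether the 3 libraries of a group stand for 3 animals. The p-values therefore measure only the spread between libraries, part of which may be technical. Estimated depth was 27.3 to 33.8 M (mega) fragments per library.

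Transcripts of hepatocytes dominated the libraries. The 14 hepatocyte markers summed to 61303 to 84244 FPKM, and the 16 biliary markers to 85.7 to 705, with Cftr and Sctr below 1 FPKM in every library. Treated library 1 differed from treated libraries 2 and 3: the correlation of log2(FPKM + 1) between libraries fell to 0.921 in that group, against 0.972 or more in sham and 0.940 or more in BDL. Counts of calls are given with and without it. In bulk RNA, fewer cells of a type and less RNA per cell cannot be told apart. Many processed pseudogenes copy ribosomal protein mRNAs, and the sources used here do not say whether the counting divided such reads or used the strand, so single-gene values are uncertain to that degree.

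The TOP run is shown here because it is the shared sequence mark of the family, and the genes printed below are ones that the results turn on. They were picked, after their values were seen, among genes with a single listed start. RefSeq (GRCm38.p6) listed a promoter for 63 of the 84 genes. The base at a listed start was a C followed by at least 4 pyrimidines in 14 of the 63 (22.2%), against 3.01% of the 27025 genes with a listed promoter and 2.89% of the 7999 tested genes with a promoter. A gene with several listed starts was counted if any of them had the letters. A run of 8 pyrimidines within 25 bases either side of the start was present in 34 of the 63 (54.0%), against 22.3% of all genes with a promoter. The listed start can lie a few bases from the one used in these cells, so no run at the start says only that these letters are not there. CCGGAAG, the letters that ETS factors bind, searched on both strands from 250 bases before to 50 after the start, was found in 25 of the 63 (39.7%), in 9.93% of all genes with a promoter and in 21.5% of the tested ones. Each line gives 25 bases either side of the start, 5′ to 3′ on the gene's strand. Capitals mark the pyrimidine run at the start and, in Rpl38, also CCGGAAG.
Rpl35, chr2:39005107-39005156, minus strand: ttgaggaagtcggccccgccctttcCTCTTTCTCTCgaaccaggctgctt
Rpl38, chr11:114668555-114668604, plus strand: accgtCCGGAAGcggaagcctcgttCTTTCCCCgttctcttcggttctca
Rps6, chr4:86857343-86857392, minus strand: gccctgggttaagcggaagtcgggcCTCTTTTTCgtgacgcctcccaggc
Rplp2, chr7:141447626-141447675, plus strand: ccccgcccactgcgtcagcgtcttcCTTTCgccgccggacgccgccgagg
Rps12, chr10:23787185-23787234, minus strand: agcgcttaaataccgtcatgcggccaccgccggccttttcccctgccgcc
Rps28, chr17:33824538-33824587, minus strand: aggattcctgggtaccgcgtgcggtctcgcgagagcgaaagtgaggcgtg
Rpl36al, chr12:69184043-69184092, minus strand: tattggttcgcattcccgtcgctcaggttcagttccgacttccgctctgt
Rpl7l1, chr17:46782632-46782681, minus strand: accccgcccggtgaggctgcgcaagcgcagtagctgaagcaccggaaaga

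The pyrimidine run at the listed start was 11 bases long in Rpl35, 9 in Rps6, 8 in Rpl38 and 5 in Rplp2. Rps12, Rps28, Rpl36al and Rpl7l1 had none there. Rps12 did have a run of at least 8 pyrimidines a few bases after the listed start, and the printed windows of Rps28, Rpl36al and Rpl7l1 held no such run.

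The family took a larger part of the RNA in both groups of ligated mice than in sham. Its summed FPKM was 15803, 17384 and 20381 in the sham libraries (lowest, median and highest), 24809, 25933 and 36275 in BDL, and 29888, 32361 and 35325 in the treated libraries. Neither ligated group overlapped sham, and the ligated groups overlapped each other. As a share of all FPKM this was 3.60% ± 0.296 in sham, 5.96% ± 1.09 in BDL and 6.05% ± 0.422 in the treated libraries (SD, n = 3). The large subunit took 2.21% ± 0.196, 3.60% ± 0.633 and 3.69% ± 0.254, and the small subunit 1.39% ± 0.10, 2.36% ± 0.460 and 2.36% ± 0.176.

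In the ligated libraries most of the genes lay above their sham mean, 76 to 81 of the 81 in each library, and the family's level differed between libraries of a group. On the log2(FPKM + 1) scale, the median gene lay at -0.19, 0.21 and -0.03 relative to the sham mean in sham libraries 1, 2 and 3. It lay at 0.53, 0.86 and 0.47 in BDL libraries 1, 2 and 3, and at 0.81, 0.69 and 0.96 in the treated ones. Sham library 1 held the lowest FPKM of 59 of the 81 genes and sham library 3 that of 19, while the highest was in treated library 3 for 40 and in BDL library 2 for 25. The spread among genes also differed, with an SD over the 81 genes of 0.07 to 0.15 in the sham libraries, 0.49 in BDL library 2, and 0.39 and 0.45 in treated libraries 2 and 3.

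**Figure D1:**
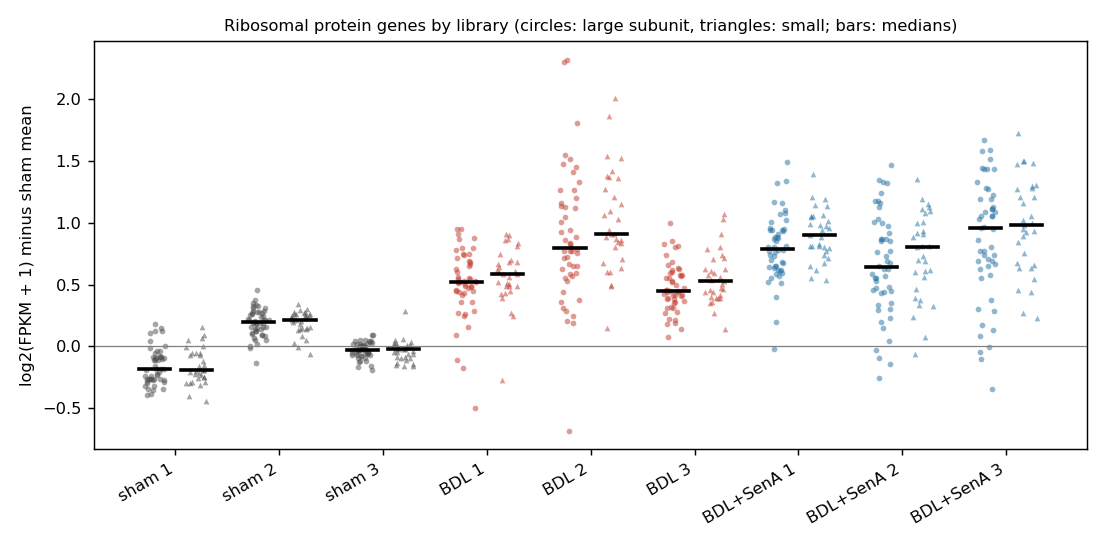
Each point is 1 of the 81 tested genes in 1 library, as log2(FPKM + 1) minus its sham mean, with large subunit genes as circles, small subunit genes as triangles and medians as bars. The 3 BDL libraries have family medians of 0.53, 0.86 and 0.47 and the 3 treated libraries 0.81, 0.69 and 0.96, all above the 3 sham libraries.

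Levels per length spanned a wide range. The highest mean FPKM over the 9 libraries was that of Rpl41, whose product is a very short basic peptide, at 1181, followed by the stalk gene Rplp1 at 1116 and by Rpl10, which encodes a late-joining protein near the catalytic centre, at 948. In the small subunit Rps14, a platform protein, led at 773, followed by the head protein gene Rps18 at 678 and by Rps2, of the mRNA entry channel, at 635. The lowest of the tested genes were Rpl6l at 22.1, Rpl7l1 at 25.4, Rps15a at 29.5, Rpl21 at 30.2 and Rps20 at 60.3. Exon length in the annotation may enter these levels: in GENCODE, the merged exons of Rps15a and Rps20 covered 6270 and 4080 bases, against a family median of 1781. Rpl3l and Rpl39l, paralogues known from muscle and testis, and the processed pseudogene Rpl32l stayed below 1 FPKM in every library, with means of 0.0314, 0.130 and 0.107.

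The first comparison, BDL against sham, asked what ligation did to the family. Genes of both subunits were higher in BDL in nearly all cases, and few passed the test. In limma with Benjamini-Hochberg adjustment over 9884 genes, 7 of the 81 rose and none fell, where 8.12% of all tested genes rose and 2.84% fell. The 7 were the small subunit genes Rps12, Rps13, Rps19, Rps20 and Rps28 and the large subunit genes Rpl10a and Rpl21, so that 5 of 31 and 2 of 50 rose. The size of this split moved with the setting. Of the 50 large and 31 small subunit genes, 11 and 7 passed with no variance trend and 10 and 9 with GC correction. Without BDL library 3 it was 10 and 7, and without treated library 1 it was 16 and 14. The small subunit had the larger share in each of these settings, by very little with no variance trend. The called share of the whole family, 7 of 81, is close to that of all genes. The log2 change was above 0 in 80 of 81 genes, against 63.3% of all genes, 62 passed at an unadjusted p under 0.05 (21.4% of all genes), and in 71 the groups did not overlap with BDL higher (21.5% of all genes). None was lower at an unadjusted p under 0.05 or lower without overlap, against 7.2% and 8.96% of all genes. The median log2 change was 0.65, against 0.15 over all genes, a gap of 0.50. Over the 18 alternatives the gap ran from 0.30, without sham library 1, to 0.63, without sham library 2. It was 0.36 without BDL library 2 and 0.37 with length correction.

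The count of calls rested on single libraries and on scaling, while the direction did not. It was 0 without sham library 2, without sham library 3, without BDL library 2 or with median-ratio scaling, 3 without sham library 1 or with no filter on low values, 4 without BDL library 1 or without treated library 2, 17 without BDL library 3 and 30 without treated library 1. The treated libraries lie outside this comparison but share in the estimate of the spread. The count over all tested genes moved too: 803 rose as reported, 139 without sham library 2, 123 without sham library 3, 161 without BDL library 2, 769 without BDL library 3 and 1270 without treated library 1. With median-ratio scaling 545 of all tested genes rose, and none of the family. Over those 9 omissions and 9 other settings, 78 to 80 of the 81 genes stayed above 0.

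Rps20, a protein of the head of the small subunit, had the smallest p. It read 28.0, 38.9 and 32.2 FPKM in the sham libraries, 62.0, 86.1 and 62.3 in BDL, and 69.0, 71.3 and 93.3 in the treated libraries. Every ligated library was above every sham library. The log2 change from sham to BDL was 1.06 ± 0.23 (SE; limma, adjusted p = 0.0191). Rps19, a head protein whose human gene is the one most often mutated in Diamond-Blackfan anaemia, read 88.6, 101 and 86.3 FPKM in sham, 168, 223 and 161 in BDL, and 211, 150 and 171 in the treated libraries. Its 2 ligated groups overlapped each other and not sham, and the change to BDL was 0.98 ± 0.23 (limma, adjusted p = 0.0233). Rps28, beside the channel where mRNA leaves, read 85.8, 104 and 79.96 FPKM in sham, 169, 233 and 188 in BDL, and 237, 136 and 142 in the treated libraries. Here the treated libraries split, with library 1 at the height of BDL and libraries 2 and 3 between BDL and sham. The change to BDL was 1.12 ± 0.26 (limma, adjusted p = 0.0249). Each of these 3 calls ended without sham library 2, sham library 3 or BDL library 2, at adjusted p values of 0.0583 to 0.122 (limma).

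Of the other called genes, Rps13, which lies in the body of the small subunit, rose by 1.0 ± 0.26, with 132 to 149 FPKM in sham and 221 to 412 in BDL. Rps12 of the beak rose by 0.87 ± 0.22, from 91.6 ± 13.3 to 168 ± 21.1 FPKM (SD, n = 3). Rpl21, in the central protuberance of the large subunit, rose by 0.89 ± 0.23, from 20.2 ± 3.32 to 38.2 ± 5.67 FPKM. Rpl10a, of the L1 stalk, was named after its values were seen and rose by 0.89 ± 0.24, from 181 ± 24.5 to 339 ± 63.7 FPKM. The adjusted p values of these 4 genes were 0.0324 to 0.0357 in limma. By position in the ribosome, 3 of the 9 head and beak genes rose, and all 9 were higher in BDL without overlap, with log2 changes from 0.63 to 1.06, beside 7 and 71 of the whole 81, and 8.12% and 21.5% of all genes. No difference between positions was tested. Among mRNA exit and platform genes 1 of 5 rose. None passed in the lists of the decoding and mRNA entry site (4 genes, median 0.55), the foot and signalling proteins (4 genes, median 0.56), the peptide tunnel (9 genes, median 0.54) or the peptidyl transferase and tRNA sites (3 genes, median 0.70).

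**Figure D2:**
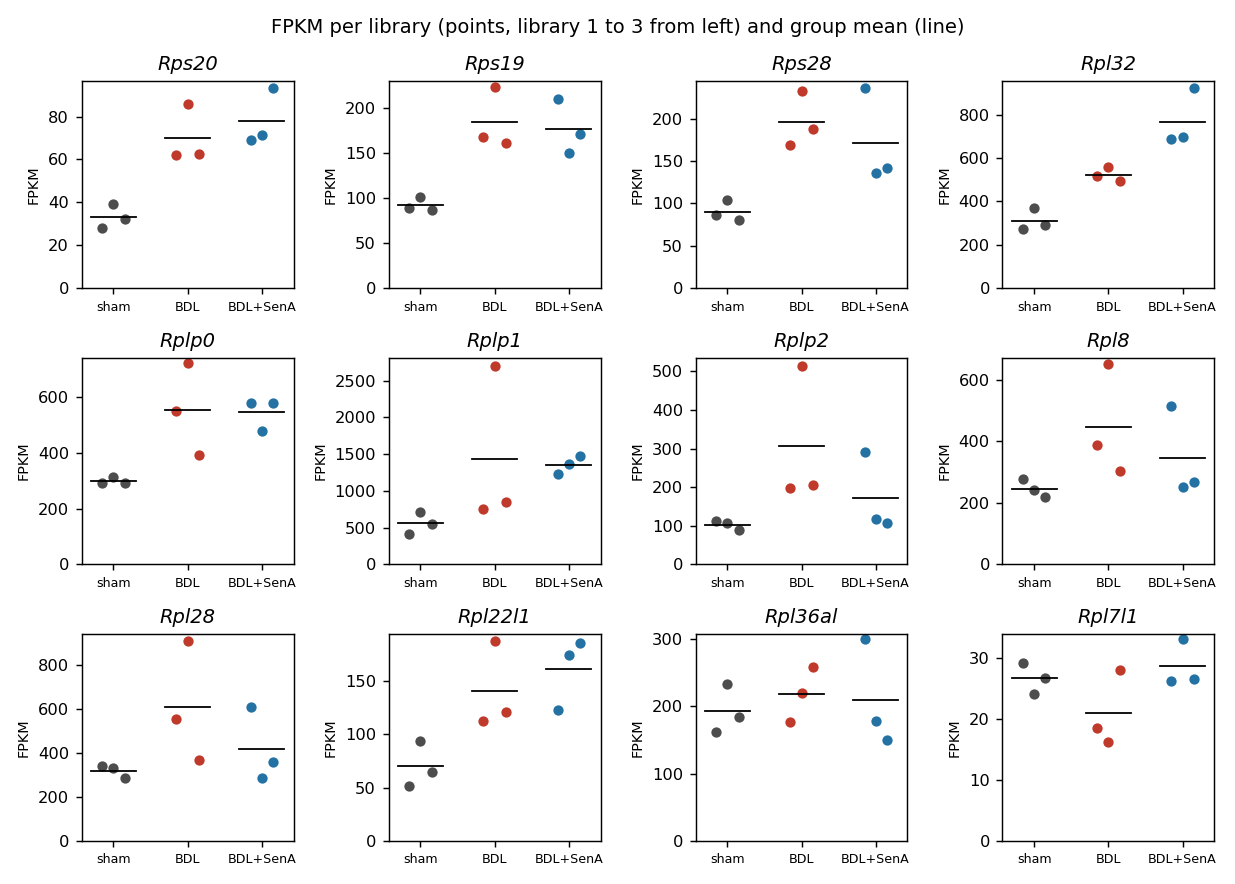
FPKM of 12 genes in each library (points, libraries 1 to 3 from left to right) with group means (lines), on linear axes from 0. Rps20, Rps19 and Rps28 separate sham from BDL, Rplp1 and Rplp2 have their highest point in BDL library 2 (2701 and 515 FPKM), and Rpl36al and Rpl7l1 overlap between sham and BDL.

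The P stalk, which recruits the elongation factors, held the 2 largest changes to BDL and 2 of the 3 genes that varied most around the family. Rplp1 read 416, 709 and 552 FPKM in sham, 747, 2701 and 844 in BDL, and 1225, 1372 and 1475 in the treated libraries. Rplp2 read 113, 106 and 89.3 FPKM in sham, 198, 515 and 206 in BDL, and 290, 118 and 108 in the treated libraries. BDL library 2 was 1.83 times the next highest library for Rplp1 and 1.77 times for Rplp2. The changes to BDL were 1.13 ± 0.44 and 1.42 ± 0.43, with adjusted p values of 0.117 and 0.0566 in limma, so that both missed the threshold. The anchor Rplp0 read 292, 314 and 293 FPKM in sham against 549, 720 and 392 in BDL, a change of 0.84 ± 0.26 (limma, adjusted p = 0.0610). The proteins form dimers of P1 with P2, and the mRNA ratio Rplp2 over Rplp1 was 0.195 ± 0.0679 in sham, 0.233 ± 0.0387 in BDL, and 0.237, 0.0859 and 0.0734 in the 3 treated libraries. The group ranges of this ratio overlap, and libraries 2 and 3 of the treated group are the lowest of the 9.

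The next comparison, of treated with BDL libraries, asked what the compound did in ligated mice. No ribosomal protein gene rose or fell, as was the case for nearly all genes: 0% of the 9884 rose and 0.0101% fell in limma. At an unadjusted p under 0.05, 5 genes were higher, among them Rpl22, Rpl32, Rpl35a and Rps3, and none was lower, against 3.34% and 8.92% of all genes. In 15 genes the treated libraries lay above all BDL libraries and in 1 below, against 3.25% and 14.3% of all genes. The log2 change was above 0 in 58 of 81 genes (38.1% of all genes), with a median of 0.18 against -0.12 over all genes. The median was 0.11 without BDL library 1 or without treated library 3, 0.12 without BDL library 3 and 0.33 without BDL library 2, and it was 0.32 with median-ratio scaling and 0.11 with quantile normalization. None of the omitted libraries or other settings gave a higher call in this comparison.

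This lean moved with transcript length. Across the 9726 tested genes with a known length, the log2 change correlated with length at r = -0.267 (genes are not independent replicates), with shorter transcripts tending to be higher in the treated libraries. Ribosomal protein mRNAs had a median of 835 bases against 2800. With the trend on length removed from each library, 34 of 81 genes were above 0 and the median was -0.10, the same as the -0.10 of all genes. In BDL against sham the same correction left a median of 0.53 with 7 calls, against a median of 0.16 over all genes. In the treated libraries against sham it left a median of 0.38 with 0 calls, against 0.06 over all genes. The correlation with length over all genes was -0.111 in BDL against sham and -0.293 in the treated libraries against sham. Within the family the correlation with length was 0.033 for treated against BDL, over 81 genes. The trend was fitted with these 81 genes included, so it may take up part of their own change. The part of length in the lean, or in the changes from sham, was not tested.

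Rpl32, of the solvent side of the large subunit, read 270, 367 and 292 FPKM in sham, 516, 557 and 493 in BDL, and 686, 696 and 923 in the treated libraries. The 3 groups were ordered without overlap, and the step from BDL was 0.55 ± 0.24 (limma, adjusted p = 0.407). Rps3, of the mRNA entry channel, differed by 0.49 ± 0.22 and Rpl35a by 0.55 ± 0.25, from 331 ± 57.0 to 482 ± 35.2 FPKM, also at an adjusted p of 0.407 in limma. For Rpl35a the BDL libraries, at 265, 364 and 363 FPKM, overlapped sham at 247, 376 and 287, so that only the treated libraries, at 513, 444 and 488, stood apart.

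In the other direction a small group of genes was high in treated library 1 and near sham in treated libraries 2 and 3. Rplp2 is given above. Rpl28 read 342, 329 and 284 FPKM in sham, 552, 910 and 370 in BDL, and 609, 287 and 357 in the treated libraries. Rpl7 read 294, 390 and 352 FPKM in sham, 468, 466 and 511 in BDL, and 516, 287 and 332 in the treated libraries. In these 3 genes treated library 1 fell within or above the BDL range and libraries 2 and 3 lay below every BDL library, while the median gene of the family was 0.69 and 0.96 above sham in those 2 libraries. The log2 differences from BDL were -0.83 ± 0.43 for Rplp2, -0.52 ± 0.36 for Rpl28 and -0.39 ± 0.26 for Rpl7, and none passed (limma, adjusted p 0.425 to 0.504). Rpl5, which with Rpl11 and the 5S rRNA binds MDM2, was the 1 gene whose treated libraries, at 165, 154 and 153 FPKM, lay below all BDL libraries, at 203, 190 and 170, a difference of -0.25 ± 0.21 (limma, adjusted p = 0.569). Its partner Rpl11 lay above, at 217, 206 and 223 FPKM against 180, 160 and 162, a difference of 0.37 ± 0.22 (limma, adjusted p = 0.464).

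**Figure D3:**
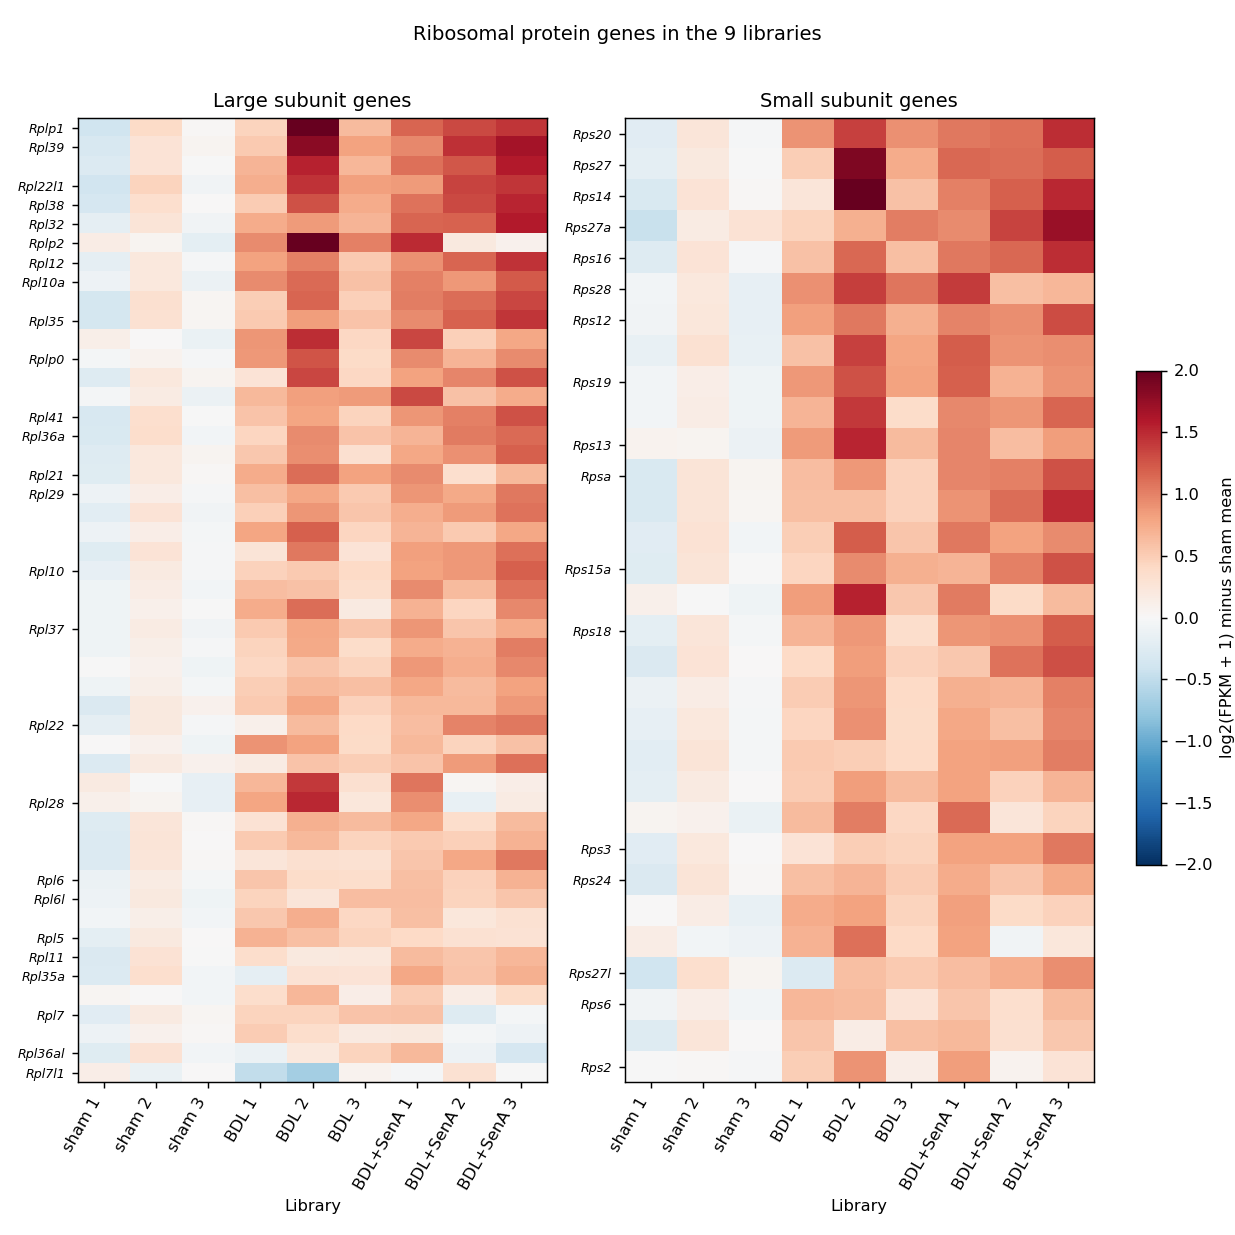
Colour gives log2(FPKM + 1) minus the sham mean for the 50 large and 31 small subunit genes tested (rows) in the 9 libraries (columns). Most rows are red in all 6 libraries of ligated mice; Rpl7l1 is blue in BDL libraries 1 and 2, and the rows of Rplp2 and Rpl28 fade in treated libraries 2 and 3. Row names are given for genes described in the text.

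The third comparison, BDL plus senkyunolide A against sham, shares the sham libraries with the first and the treated libraries with the second, so its values are no separate evidence. In limma 13 of the 81 genes rose and none fell, against 1.76% and 0.405% of all genes. They were 7 of the large subunit, among them Rpl10a, Rpl12, Rpl29, Rpl32, Rpl35 and Rpl38, and 6 of the small, among them Rps12, Rps16, Rps20, Rps27a and Rpsa. All 81 had a log2 change above 0 (53.6% of all genes), 67 passed at an unadjusted p under 0.05 (15.6% of all genes), and 73 did not overlap with the treated libraries higher (17.5% of all genes). None was lower at an unadjusted p under 0.05 (7.64% of all genes) or lower without overlap (12.1% of all genes). The median was 0.86 against 0.04 over all genes. The count was 0 without any 1 of the 3 sham libraries or without treated library 2 or 3, 3 without BDL library 1, 19 without BDL library 2 and 43 without treated library 1, where 1214 of all tested genes rose against 174 as reported. It was also 0 with no filter on low values, median-ratio scaling, quantile normalization, length correction or only the 2 groups in the fit, and the log2 change stayed above 0 in 75 to 81 genes over the 18 alternatives. Over all tested genes, 0, 0 and 3 rose without sham library 1, 2 and 3, and 0 and 4 without treated library 2 and 3. The number was 123 without BDL library 1 and 177 without BDL library 2. With no filter 0 of all genes rose, with median-ratio scaling 97, with quantile normalization 28, with length correction 14 and with only the 2 groups 52.

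Rpl32, whose libraries are given above, rose by 1.31 ± 0.24 (limma, adjusted p = 0.0314), and Rps20 by 1.21 ± 0.23 (limma, adjusted p = 0.0360). Rps27a, which encodes ubiquitin fused to a beak protein, rose by 1.34 ± 0.29, from 107, 163 and 178 FPKM in sham to 280, 374 and 484, with BDL between at 199, 238 and 298. Rpl38, known in mouse embryos for the translation of homeobox mRNAs, rose by 1.31 ± 0.27, from 106, 170 and 135 FPKM to 285, 337 and 386. Rpl12, at the base of the stalk, rose by 1.17 ± 0.25 and Rps16, a head protein that reaches the peptidyl-tRNA, by 1.23 ± 0.26. Rpsa, a platform protein also known as the laminin receptor precursor, rose by 1.09 ± 0.24, from 258 ± 50.2 to 546 ± 64.8 FPKM. With length correction the change was 0.75 for Rpl32, 0.72 for Rpl38 and 0.56 for Rps12, and none of these passed in limma. Rpl12, Rpl32, Rpl38, Rps12, Rps16, Rps20, Rps27a and Rpsa each passed in 6 to 8 of the 18 alternatives. The largest change was in Rpl39, a small protein that lines the peptide tunnel, at 1.36 ± 0.35, and it did not pass (limma, adjusted p = 0.0584). Rpl10a, Rpl12, Rpl29, Rpl35, Rpl38, Rps12, Rps16, Rps27a and Rpsa had adjusted p values of 0.0386 to 0.0485 in limma, all just under the threshold, and Rpl29, Rpl35 and Rpl10a were named for this comparison after their values were seen.

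The medians of large and small subunit genes lay close together in each comparison. The median log2 change from sham to BDL was 0.61 for the large and 0.69 for the small subunit, a difference of -0.08. The difference between the median levels of the subunits had an SD of 0.04 between replicate libraries, which is a spread of levels and not of changes. Relative to the sham mean, the large minus the small median was 0.006, -0.019 and -0.006 in sham libraries 1, 2 and 3. It was -0.063, -0.111 and -0.082 in those of BDL, and -0.109, -0.163 and -0.024 in the treated ones. No difference between the subunits was tested. The difference of -0.08 from sham to BDL became -0.04 after GC correction and -0.09 with median-ratio scaling. Over the omitted libraries it ran from -0.097 to -0.041. Quantile normalization, at 0.02, was the only alternative that changed its sign. Between BDL and treated the difference was 0.02 and changed sign without BDL library 2 (-0.03), and between sham and treated it was -0.06.

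**Figure D4:**
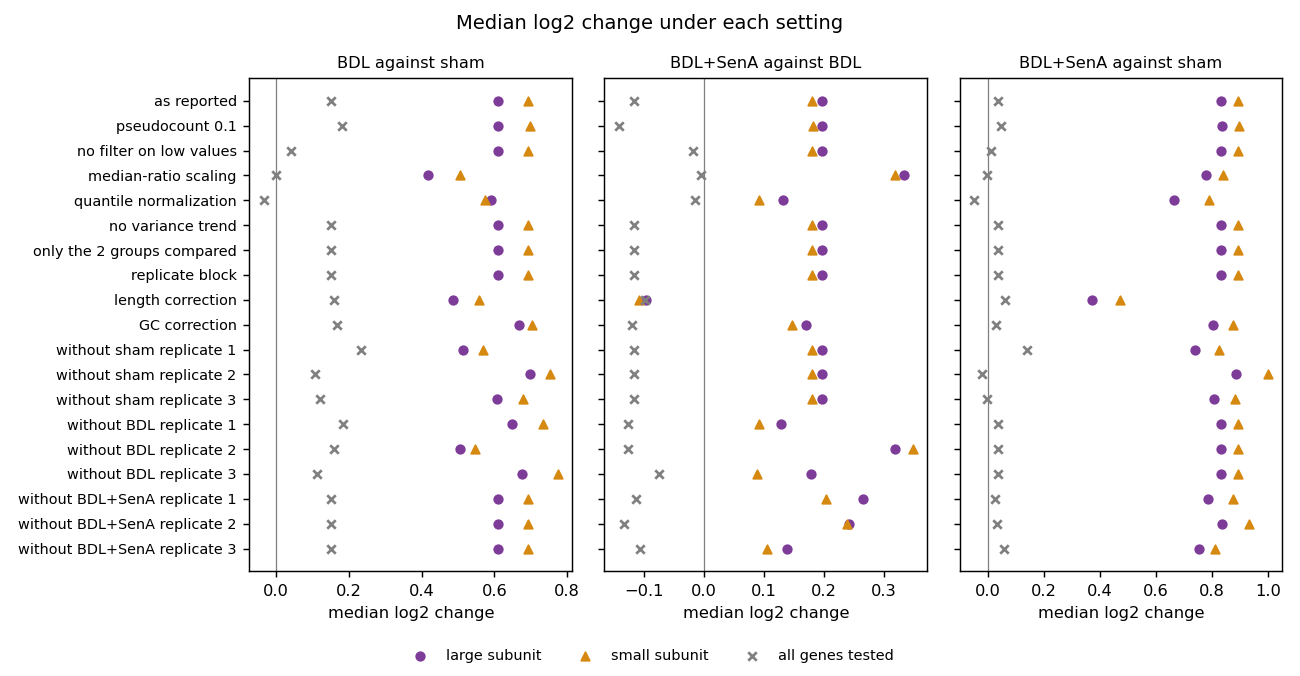
Median log2 change of the large subunit genes (circles), the small subunit genes (triangles) and all genes tested (crosses) in the 3 comparisons, as reported and under the 18 alternatives. In BDL against sham the subunit medians, 0.61 and 0.69 as reported, lie to the right of all genes under every setting, whereas in the treated libraries against BDL they meet all genes at -0.10 under length correction.

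Paralogues did not all follow the family. Rpl22l1 encodes a close relative of Rpl22, and in mice the Rpl22 protein is known to repress it. It read 51.8, 93.3 and 64.8 FPKM in sham, 113, 187 and 121 in BDL, and 123, 175 and 186 in the treated libraries, a change of 1.0 ± 0.29 to BDL (limma, adjusted p = 0.0515). Rpl22 itself read 41.4, 54.3 and 46.5 FPKM in sham against 50.4, 73.4 and 62.7 in BDL, a change of 0.38 ± 0.23 (limma, adjusted p = 0.307), and 72.8, 94.9 and 99.0 in the treated libraries. The ratio of Rpl22l1 to Rpl22 was 1.25, 1.72 and 1.39 in sham, 2.23, 2.56 and 1.94 in BDL, and 1.69, 1.84 and 1.88 in the treated libraries. The BDL ratios lay above all others, and the lowest treated ratio lay within the sham range.

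Rpl7l1, a relative of Rpl7, was the 1 tested gene with a negative change from sham to BDL on the deposited scale. It read 29.1, 24.1 and 26.7 FPKM in sham, 18.5, 16.2 and 28.0 in BDL, and 26.1, 33.0 and 26.5 in the treated libraries. BDL libraries 1 and 2 lay below sham and library 3 within it, and the change of -0.37 ± 0.23 did not pass (limma, adjusted p = 0.329). Rpl36al read 162, 234 and 184 FPKM in sham against 177, 220 and 259 in BDL, a change of 0.18 ± 0.29 (limma, adjusted p = 0.741), while its parent Rpl36a went from 163 ± 38.3 to 255 ± 48.5 FPKM, 0.65 ± 0.26 (limma, adjusted p = 0.122). In the treated libraries, Rpl36al read 300, 179 and 151 FPKM, so that its ratio to Rpl36a was 1.16 in library 1 and 0.543 and 0.429 in libraries 2 and 3, against 1.14 to 1.25 in sham. Rps27l, a p53 target, differed from sham by 0.29 ± 0.28 in BDL (limma, adjusted p = 0.552) and Rps27 by 1.03 ± 0.33 (limma, adjusted p = 0.0682). Rpl6l, a processed pseudogene in GENCODE, stayed at 0.0863 ± 0.00290, 0.0888 ± 0.0143 and 0.0849 ± 0.00464 of Rpl6 in the 3 groups, and reads may be shared between these near-identical copies.

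Among individual members, the ones that varied most around the family median of their library were Rplp2, Rpl7l1 and Rplp1, with SDs over the 9 libraries of 0.63, 0.58 and 0.52 on the log2 scale. Among the steadiest were Rpl37 and Rps24, at 0.06 and 0.10. Both were named after their values were seen. Rps14 and Rps27 shared the high value of BDL library 2 with the stalk genes: Rps14 read 488, 1663 and 615 FPKM in BDL against 334, 499 and 418 in sham, and Rps27 read 314, 818 and 374 against 196, 256 and 223. Both missed the threshold in limma (adjusted p = 0.153 and 0.0682). Rps27rt, a retrocopy of Rps27 outside the family rule, was also highest in that library, with 53.0 FPKM in BDL library 2 and 9.35 to 36.7 in the others. Rps6, the S6 kinase substrate, read 194, 224 and 196 FPKM in sham, 325, 317 and 247 in BDL and 299, 258 and 317 in the treated libraries, a step of 0.53 ± 0.22 to BDL (limma, adjusted p = 0.142).

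Gene lists around the ribosome had lower medians than the family from sham to BDL. Among the partners that the naming rule leaves out, Rack1, Fau and Rps3a1 had log2 changes from sham to BDL of 0.61 ± 0.24, 0.69 ± 0.27 and 0.37 ± 0.25, none of which passed (limma, adjusted p 0.117 to 0.360). Among 19 elongation factor and other TOP mRNA genes 1 rose in BDL, the RNA-binding protein gene Hnrnpa1 (0.81 ± 0.22), and the list median was 0.37. It was -0.15 from BDL to treated. Eef2, the translocase, read 494, 325 and 326 FPKM in sham, 674, 1102 and 463 in BDL, and 596, 310 and 309 in the treated libraries, so that treated libraries 2 and 3 were below every sham library.

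None of 30 ribosome biogenesis genes passed in any comparison, with medians of 0.25 from sham to BDL and -0.31 from BDL to treated. The smallest p from sham to BDL was that of Gar1, an H/ACA snoRNP protein, at 0.97 ± 0.30 (limma, adjusted p = 0.0590). None of 8 chaperones of ribosomal proteins passed, and the median was 0.07. Of 78 mitochondrial ribosomal protein genes 1 rose in BDL (Mrpl54, 1.08 ± 0.31) and 1 fell (Mrpl49, -0.72 ± 0.19), with a median of 0.05. The 14 proteasome core genes, which like the ribosomal protein genes encode subunits of a large complex, had a median of -0.01 in BDL and 0.52 from BDL to treated, with none called. Of 17 mTORC1, LARP1 and MYC regulator genes 3 rose in BDL: Eif4ebp1, which encodes the translation repressor 4E-BP1, by 1.19 ± 0.26, and the mTORC1 inhibitors Ddit4 and Sesn2 by 1.98 ± 0.52 and 0.85 ± 0.22. Their list median was -0.46 from BDL to treated, with none called. Over all tested genes, 8.12% rose and 2.84% fell from sham to BDL.

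**Figure D5:**
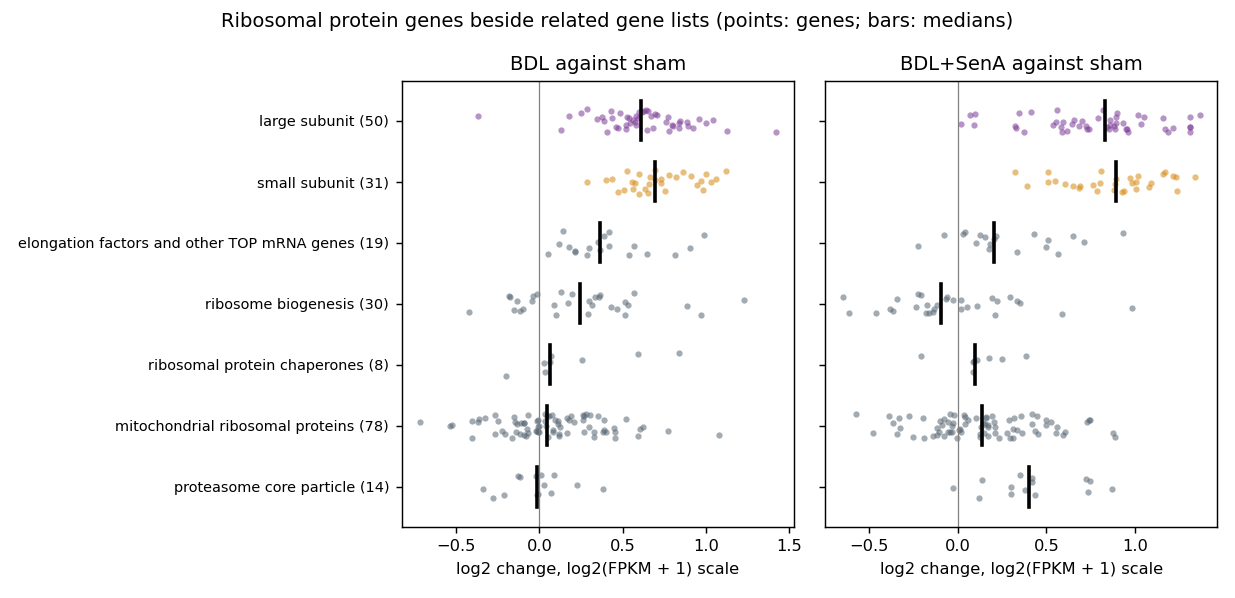
Log2 change on the log2(FPKM + 1) scale of each tested gene (points) and list median (bars) for the 2 subunits and 5 related lists, with the number of genes in brackets. From sham to BDL the subunit medians are 0.61 and 0.69, against 0.37, 0.25, 0.07, 0.05 and -0.01 for the lists below them.

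Some markers of immune cells and of biliary cells were also higher in BDL than in sham. In that comparison, of 12 macrophage markers 7 rose and none fell, and their FPKM summed to 210 to 287 in the sham libraries, 511 to 1023 in those of BDL and 414 to 1309 in the treated ones. Of 4 tested neutrophil markers 3 rose, and all 8 listed went from a summed 2.96 to 6.43 FPKM in sham to 37.8 to 65.8 in BDL and 18.3 to 105 in the treated libraries, while Ly6g, Cxcr2 and Mpo stayed below 1 FPKM in every library. Of 5 tested lymphocyte markers 2 rose, with sums of 3.52 to 13.3, 18.2 to 28.8 and 7.08 to 14.6 FPKM, and Cd8a and Ms4a1 stayed below 1. Of 10 tested biliary markers 3 rose, with sums of 85.7 to 115, 162.5 to 705 and 139 to 517 FPKM in the 3 groups. Of 14 hepatocyte markers 1 rose and 1 fell, of 5 erythroid markers 1 fell, of 10 stellate and fibroblast markers 2 fell and of 10 endothelial markers none passed. Of all tested genes, 8.12% rose and 2.84% fell between sham and BDL. From BDL to treated no marker of these lists passed. There the stellate and fibroblast markers had a median log2 change of 1.05, with 8 of 10 higher at an unadjusted p under 0.05, and the erythroid markers one of 1.49, with 4 of 5. Over all tested genes the median was -0.12, and 3.34% were higher at that threshold. The erythroid sums in FPKM were 237 to 270 for sham libraries, 125 to 437 for those of BDL and 515 to 864 for the treated ones, and the stellate and fibroblast sums were 84.6 to 124, 26.9 to 133 and 115 to 270. From sham to treated 2 of 5 erythroid, 3 of 12 macrophage, 3 of 4 neutrophil and 1 of 10 biliary markers rose, none of any list fell, and the erythroid median was 1.72. Of all tested genes, 1.76% rose and 0.405% fell between sham and treated, with a median of 0.04. In treated library 1 the macrophage sum was 414 and the neutrophil sum 18.3 FPKM, the lowest of the 6 ligated libraries, whereas its ribosomal protein median, at 0.81, lay between those of libraries 2 and 3. The part of these cells in the family's change was not tested.

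GC content moved with the changes as well. The median coding GC content was 52.6% in the family and 52.7% over all tested genes with a value. Over the 80 members with a coding sequence in the annotation, the log2 change from sham to BDL correlated with coding GC content at r = 0.245, against 0.294 over the 9687 tested genes with one (across genes, which are not independent replicates and share the libraries). With the trend on GC removed from each library, 19 members and 885 of all tested genes rose in BDL, and the medians were 0.69 for the family and 0.17 for all genes.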

How the data were processed

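PolyA RNA was sequenced from 9 mouse libraries in 3 groups, which were taken from the labels. The submitters' processing notes name the build GRCm38 (mm10) and the tools HISAT2 (version 2.0.5), featureCounts (version 1.5.0-p3), fastp, CASAVA (version 1.8) and DESeq2 (version 1.20.0). The sources used here do not state their settings, the annotation or whether strand was used. The authors deposited FPKM values for 22173 genes. FPKM depend on the exon length used and on the library total, so abundant genes lower all others. No counts were recovered, so no count model was used. Depth, estimated from low FPKM of genes with 1 transcript, is approximate: 28.2% to 32.9% of those values per library lay within 0.02 of a whole fragment.

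Values were analysed as log2(FPKM + 1), which understates changes of low genes. The 9884 genes with a mean of at least 1 FPKM were fitted with limma 3.58.1 in R 4.3.3 over all 9 libraries, with a variance trend, two-sided, and called at a Benjamini-Hochberg adjusted p under 0.05. Lengths and GC content came from GENCODE M21 and promoters from RefSeq. The fit was tested on simulated data.

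The members, gene lists and tests were chosen with earlier results of these data known. Genes were named by rule: per comparison the 6 smallest p, the 4 largest and the 4 smallest changes, the 3 highest and 3 lowest levels per subunit, paralogues with their parents, the stalk, 5S and Rps6 genes, and up to 4 genes per other list. Alternatives were pseudocount 0.1, no filter, median-ratio and quantile scaling, no variance trend, the compared groups alone, replicate number as a block, length correction, GC correction (chosen after seeing the data) and leaving out each library. Same-numbered libraries of different groups correlated at -0.385 to 0.25 in their deviations, so the numbers were not taken as pairs. Some genes are not reported here.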

Additional observations from a re-analysis of the deposited data

How the results depend on the processing

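The log2 changes kept their direction in most genes, while the number of calls varied. The 7 calls from sham to BDL became 3 without the filter, 0 with median-ratio scaling, 18 without the variance trend, 11 with only the 2 groups and 19 with GC correction, and 0 to 30 when 1 library was left out. In the same order, the 803 of all tested genes that rose became 396, 545, 786, 964 and 885, and 123 to 1270 when 1 library was left out. The 13 calls from sham to treated became 24 with pseudocount 0.1, 0 without the filter, with either scaling, with only the 2 groups or with length correction, 23 without the variance trend and 24 with GC correction, and 0 to 43 when 1 library was left out. Of all tested genes, 174 rose as reported, 358 with pseudocount 0.1, 0 without the filter, and 97 and 28 with median-ratio and quantile scaling. With only the 2 groups 52 rose, with length correction 14, without the variance trend 203 and with GC correction 324. When 1 library was left out, 0 to 1214 rose. The family medians moved to 0.46 with median-ratio scaling (sham to BDL), and with length correction to -0.0977 (BDL to treated) and 0.378 (sham to treated). The large minus small difference moved to 0.0177 with quantile normalization and -0.0364 with GC correction (sham to BDL) and to -0.125 with quantile normalization (sham to treated). Over the omitted libraries it ranged from -0.0967 to -0.0413 (sham to BDL), -0.0299 to 0.09 (BDL to treated) and -0.1138 to -0.06 (sham to treated). The fit with the replicate number as a block gave 5, 0 and 15 calls in the 3 comparisons. From sham to BDL, Rpl35a turned to -0.0599 (median-ratio), -0.0058 (quantile) and -0.0439 (length), with -0.0053 to 0.2952 over the omitted libraries, and Rpl36al to -0.0137 (median-ratio). From sham to treated, Rpl36al turned to -0.0494 (quantile) and -0.4807 (length), with -0.2188 to 0.2768 over the omitted libraries. Rpl4 turned to -0.0311 (median-ratio), -0.1966 (quantile) and -0.1232 (length), with -0.0671 to 0.0816, Rpl7 to -0.1276 (quantile) and -0.1612 (length), with -0.1503 to 0.2711, and Rpl7l1 to -0.0251 (quantile), with -0.0136 to 0.1558. None of these values passed a test, and the cause was not tested. Counts were not recovered, so the limit that depth sets on low values such as Rpl3l cannot be given.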

Other observations

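The chromosomes of the 84 genes were spread over the genome, with 14 on chromosome 7, 8 on chromosome 17 and 7 each on chromosomes 9 and 11. Myc, which the series title names, read 1.39, 5.28 and 9.26 FPKM in the sham libraries, 8.91, 11.8 and 5.80 in BDL, and 6.59, 3.99 and 4.25 in the treated libraries. Sham library 1, the lowest for Myc, also held the lowest family median, at -0.19, and BDL library 2, the highest for Myc, held the highest BDL median, at 0.86. In BDL the order of the libraries was the same for Myc and for the family median, at 0.53, 0.86 and 0.47 in libraries 1, 2 and 3. It was not in the sham and treated groups. Sham library 3 had the highest Myc of its group and the middle median, -0.03. Treated library 1 had the highest Myc of its group and the middle median, 0.81, while treated library 2 was the lowest of its group in both. A link of Myc with the family was not tested. A second retrocopy outside the naming rule, Rpl37rt, read 26.3, 25.3 and 27.4 FPKM in sham, 38.1, 41.0 and 38.1 in BDL, and 39.8, 39.0 and 40.5 in the treated libraries. It did not share the high value of BDL library 2 seen in Rps27rt.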
